A study of Homo sapiens with 4 samples.

Results

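The interferon-stimulated genes and nucleic acid sensors described here are 58 genes chosen by name: sensors of foreign RNA and DNA, the receptors and transcription factors of the interferon response, and the antiviral proteins that interferon switches on. All 58 symbols were found among the 63677 genes of the deposited table, and where DHX58 and IFNGR2 had a second row with 0 reads the row with reads was used. RNA had been sequenced from MDA-MB-231, a human line of triple-negative breast cancer cells, after transfection with a lipid reagent and a control siRNA (siCt, 2 libraries) or an ON-TARGET pool of siRNAs against AXL (siAXL, 2 libraries). AXL belongs to the TAM receptors, a small family of tyrosine kinases. Both groups received siRNA, no untransfected or interferon-treated library was analysed here, and a pool of siRNAs acts on all transcripts that it matches. The labels do not say whether the libraries of a group came from separate cultures, so the p-values measure only the spread between these libraries, which may be technical.

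Cells recognise viral RNA through the cytosolic helicases RIG-I (encoded by DDX58) and MDA5 (IFIH1), which signal through MAVS, and recognise DNA through cGAS and STING (TMEM173). These routes activate the factors IRF3 and IRF7, which switch on the interferon genes. Secreted type I interferon binds the receptor pair IFNAR1 and IFNAR2, and the kinases JAK1 and TYK2 then activate STAT factors, among them STAT2, which with IRF9 bind the interferon-stimulated response element (ISRE). Interferon gamma binds IFNGR1 and IFNGR2, and STAT dimers bind the gamma-activated site (GAS). In dendritic cells, TAM receptors are known to dampen this response through the suppressors SOCS1 and SOCS3.

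These binding sites are written in the promoters of many of the genes, and 6 of them are shown, from genes at both ends of the comparison. The called genes IFNAR1, IFNGR2 and SAMD9L had neither site in the promoters searched and are not shown. BST2, TRIM5 and IFI44 were higher in siAXL, GBP1 and IRF1 were lower, and IFIT1, chosen after its values were seen, lay nearest to the threshold among the other genes. The sequences are from RefSeq (GRCh38.p14), 5′ to 3′ on the strand of the gene, and the capitals mark the first match to the ISRE core GAAANNGAAA on either strand or, for IRF1, to the GAS TTCNNNGAA.
BST2, chr19:17405726-17405785, minus strand: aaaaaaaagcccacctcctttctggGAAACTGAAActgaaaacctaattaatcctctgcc
TRIM5, chr11:5685067-5685126, minus strand: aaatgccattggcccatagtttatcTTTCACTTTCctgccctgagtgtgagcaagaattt
IFI44, chr1:78649746-78649805, plus strand: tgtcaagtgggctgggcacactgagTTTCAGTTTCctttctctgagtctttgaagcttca
GBP1, chr1:89065301-89065360, minus strand: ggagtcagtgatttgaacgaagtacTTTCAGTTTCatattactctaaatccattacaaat
IFIT1, chr10:89392482-89392541, plus strand: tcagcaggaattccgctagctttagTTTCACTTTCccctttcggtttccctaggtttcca
IRF1, chr5:132490864-132490922, minus strand: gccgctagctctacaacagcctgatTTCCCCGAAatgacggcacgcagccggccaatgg

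The windows of BST2 and IFIT1 each hold a second ISRE core, 124 and 103 bases before the gene start, which is not in capitals or only in part. The marked match began 130 bases before the gene start in BST2, 27 in TRIM5, 127 in GBP1, 116 in IFIT1 and 124 in IRF1, and 18 or 60 bases before the 2 starts listed for IFI44. The table of RefSeq promoters used here, from 250 bases before to 50 bases after a start, covered 44 of the 58 genes. The ISRE core was found in 28 of the 44 (63.6%), against 4.38% of the 27305 genes with a promoter in that table, and the GAS in 12 (27.3%) against 9.38%. Both sets had about the same number of listed starts per gene (mean 1.3 and 1.29). The matches of both motifs overlapped in 4 genes (BST2, IFI27, IFITM1 and MX1). A match is a description of the letters in this window, and its absence says nothing on the binding of a factor.

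The 4 libraries held 39574387 to 44585773 reads. Each deposited value is a read count divided by a DESeq2 size factor, called here the normalized count. AXL, the targeted gene, had 29189 and 30617 normalized counts in siCt and 8658 and 7141 in siAXL (log2 fold change -1.93, with a standard error of 0.0918 and a limma adjusted p = 0.000585), and was lower in both libraries labelled siAXL. Of the markers fixed for this line, VIM, CD44 and S100A4 were abundant and ESR1 and PGR were at 3 reads or fewer in every library. SPARC, listed as present in the line, reached only 18.2 to 55.4 normalized counts, and of the 5 markers listed as low, ERBB2 had 2949 to 3680 and EPCAM 565 to 771. By limma ERBB2 was higher in siAXL (log2 fold change 0.26, adjusted p = 0.0258), CDH1, with 90.1 and 94.3 in siCt and 36.9 and 22.6 in siAXL, was lower (-1.64, adjusted p = 0.00847), and EPCAM was not past the threshold (0.32, adjusted p = 0.0513; 0.0430 with edgeR). The 7 leukocyte markers summed to 131.4 and 154.9 normalized counts in siCt and 164.1 and 192.6 in siAXL, and 4 of the 7 could be tested. Of these, 0 were past the threshold with limma and 1 with edgeR, CD14, with 69.0 and 73.7 in siCt and 100 and 113 in siAXL (adjusted p = 0.0509 with limma, 0.0480 with edgeR and 0.175 with DESeq2), while LYZ had a log2 fold change of -0.86 (limma adjusted p = 0.103). Their part in the results was not tested. CD3E had at most 1 read in any library and PTPRC 7.77 to 16.7 normalized counts. As RNA of whole cultures was measured, fewer cells that express a gene and less of its RNA per cell cannot be told apart.

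All 58 genes passed the filter on low reads, and 34 of them had a mean of at least 1000 reads. The study made these libraries to define an expression signature of AXL depletion, and the comparison places the interferon genes in it. With limma on log2(normalized count + 1) and an adjusted p under 0.05, 8 genes were higher in siAXL (13.8%), against 10.8% of all 16064 genes tested. The genes lower in siAXL numbered 2 (3.45%), against 7.91%. The 10 called genes make up 17.2%, near the 18.7% of all genes that were called. Both siAXL libraries lay above both siCt libraries in 23 genes (39.7%, against 30.6% of all genes) and below them in 12 (20.7%, against 30.5%), and the groups overlapped in the other 23. Without siAXL 2, 3 genes were called higher and 0 lower, without siAXL 1, 7 and 0, without siCt 1, 8 and 6, and without siCt 2, 11 and 1. When every gene with at least 1 read entered the fit, 2 of the 10 calls were kept, those of SAMD9L and IFNAR1.

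The differences were small, with quartiles of the log2 fold change at -0.080 and 0.18, against -0.16 and 0.19 over all genes tested. The log2 fold changes of the 58 genes, siAXL over siCt, ran from -0.295 in IRF1 to 0.55 in IFI44, with a median of 0.044 beside -0.0022 over all genes tested. The median size of the difference was 0.15, and the median gap between libraries of a group was 0.10 in siCt and 0.13 in siAXL. The 95% interval lay within a log2 fold change of -1 to 1 in 57 genes and within -0.5 to 0.5 in 45. The gene outside the wider bounds was USP18, the protease that removes ISG15 from proteins, with 19.2, 46.6, 30.1 and 24.6 normalized counts in siCt 1, siCt 2, siAXL 1 and siAXL 2 and an interval from -1.10 to 0.83.

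**Figure D1:**
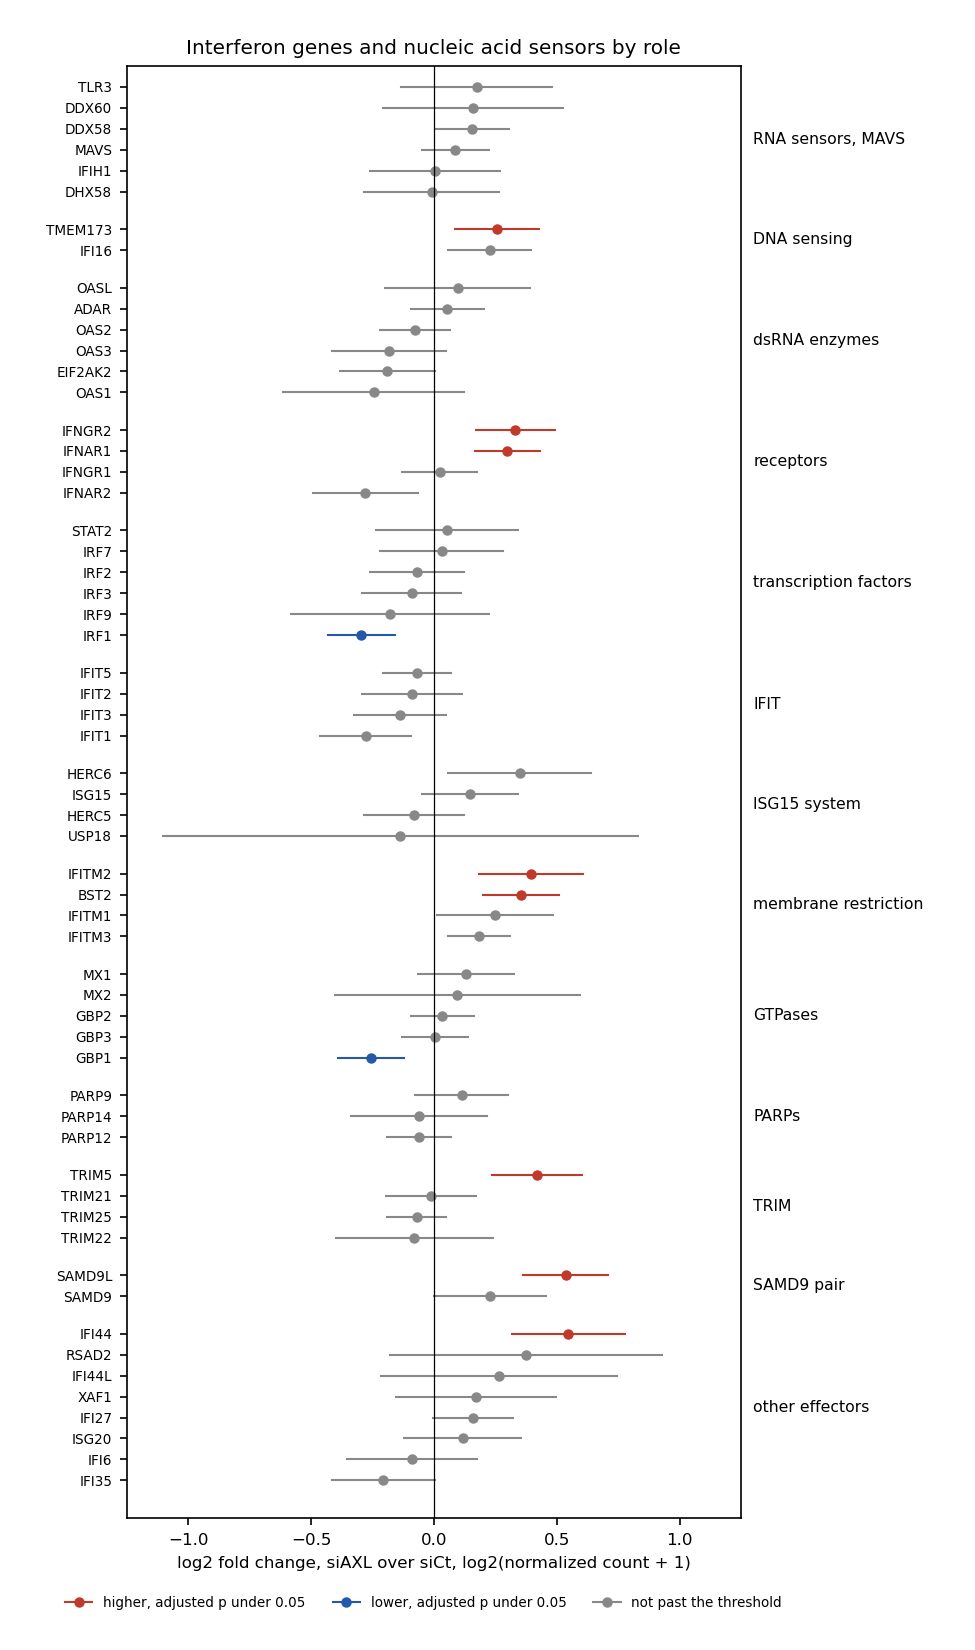
Log2 fold change, siAXL over siCt, of each of the 58 genes by role, with 95% limma intervals (2 libraries per group). Red marks the 8 genes higher and blue the 2 lower at an adjusted p under 0.05, and the widest interval is that of USP18.

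**Figure D2:**
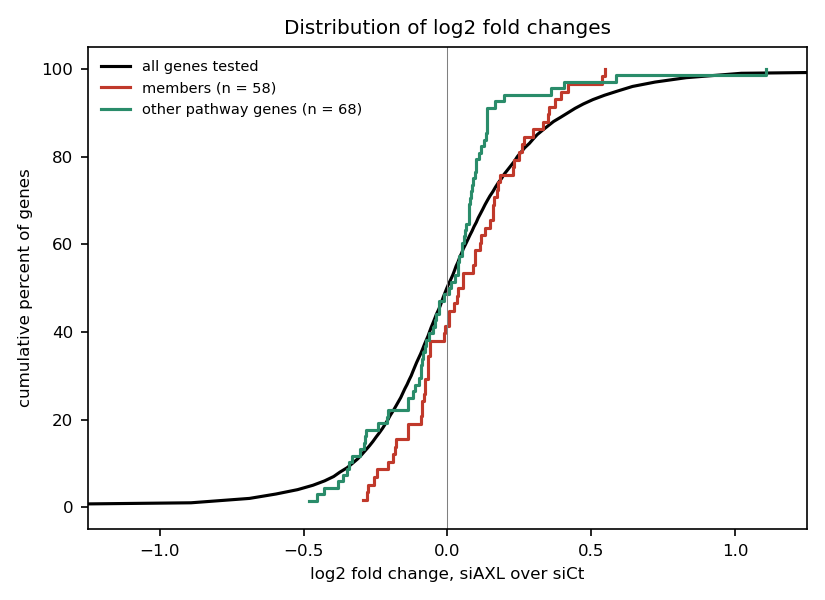
Cumulative percent of genes against the log2 fold change (siAXL over siCt) for all 16064 genes tested (black), the 58 genes (red) and 68 other genes of the pathway (green). The medians are -0.0022, 0.044 and 0.0094, and the red line ends at 0.55, inside the range of all genes.

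Of the 6 RNA sensors and their adaptor (DDX58, IFIH1, DHX58, DDX60, TLR3 and MAVS), 0 were called by limma, edgeR or DESeq2, and 1 had an unadjusted p under 0.05. Over all 16064 genes tested, limma called 3006, edgeR 3122 and DESeq2 2748, and 5468 had an unadjusted limma p under 0.05. Of the 58 genes, 18 had such a p. These totals are the background for the counts of each group below. DDX58 (RIG-I), the most abundant of them per kilobase, had 6560 and 6839 normalized counts in siCt and 7139 and 7810 in siAXL (log2 fold change 0.16, standard error 0.0635, adjusted p = 0.132). Both siAXL libraries were above both siCt libraries. IFIH1 (MDA5) had 416 and 479 in siCt and 420.5 and 477 in siAXL (log2 fold change 0.004, standard error 0.112, adjusted p = 0.984), so that the groups covered the same range. MAVS, the mitochondrial adaptor of both helicases, had 4235 and 4309 in siCt and 4406 and 4679 in siAXL (log2 fold change 0.088, standard error 0.0574, adjusted p = 0.331). The other sensors had log2 fold changes from -0.0091 to 0.17, among them DDX60 (0.16) and the endosomal receptor TLR3 (0.17).

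DNA sensing was represented by STING and IFI16. TMEM173, which encodes STING, the adaptor on which cytosolic DNA sensing converges, had 935 and 981 normalized counts in siCt and 1177 and 1113 in siAXL. It was higher in siAXL by 1.20-fold (log2 fold change 0.26, standard error 0.0721, adjusted p = 0.0483). The call was the most fragile of the 10, since the adjusted p was 0.0789 with DESeq2, 0.0649 with scaling by library size and 0.101 with all genes of at least 1 read, and 0.115, 0.249 and 0.110 without siCt 1, siAXL 1 and siAXL 2. IFI16, a nuclear DNA sensor, had 5102 and 5267 normalized counts in siCt and 5694 and 6467 in siAXL (log2 fold change 0.23, adjusted p = 0.0690), with no overlap of the groups. It passed with edgeR (adjusted p = 0.0484) and not with DESeq2 (0.0509).

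The enzymes that act on double-stranded RNA or are switched on by it (EIF2AK2, ADAR, OAS1, OAS2, OAS3 and OASL) also held 0 calls by limma, and 0 had an unadjusted p under 0.05. By edgeR and by DESeq2 the count was 0 as well. Among all 16064 genes tested, limma called 18.7%, and 5468 had an unadjusted limma p under 0.05. In 4 of the 6, the siAXL libraries were both below the siCt libraries, as in 30.5% of all genes tested. EIF2AK2, the kinase PKR that stops translation, had a log2 fold change of -0.19 (adjusted p = 0.152). A gene on the opposite strand, GPATCH11, overlaps it and averaged 1413 reads, and whether reads were counted by strand is not given in the sources used here. ADAR, the editing enzyme that marks the cell's own RNA, was the most abundant of the group, with 12630 to 13987 normalized counts over the 4 libraries and a log2 fold change of 0.055 (adjusted p = 0.586). OAS1, OAS2 and OAS3, which make the messenger that activates RNase L, had log2 fold changes of -0.245 to -0.078, and their relative OASL 0.096.

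Of the 4 receptor chains, 2 were called higher, 1 from each receptor, against 10.8% of all genes tested. IFNAR1, a chain of the type I receptor, had 2889 and 2976 normalized counts in siCt and 3550 and 3665 in siAXL. It was 1.23-fold higher (log2 fold change 0.299 with a standard error of 0.0562, adjusted p = 0.0144), and both siAXL libraries were clear of the siCt libraries. Its partner IFNAR2 had 605 and 678 in siCt and 521.5 and 534.5 in siAXL, a difference in the other direction that did not pass the threshold (log2 fold change -0.28, standard error 0.0904, adjusted p = 0.0744). IFNAR2 shares 41.2% of its 50-base words with a readthrough transcript, so its reads are uncertain. The call of IFNAR1 was lost without siAXL 1 (adjusted p = 0.0501) or siAXL 2 (0.0759).

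IFNGR2, the second chain of the interferon gamma receptor, had 2901 and 2805 normalized counts in siCt and 3409 and 3778 in siAXL, 1.26-fold higher (log2 fold change 0.33, standard error 0.0679, adjusted p = 0.0188). The ligand-binding chain IFNGR1 had 2082 and 2257 in siCt and 2213 and 2192 in siAXL, with overlapping groups (log2 fold change 0.023, standard error 0.0647, adjusted p = 0.839). IFNGR2 lost its call without siAXL 2 (adjusted p = 0.0944) and with all genes of at least 1 read (0.0696), and it overlaps TMEM50B on the opposite strand, which averaged 1020 reads. In RefSeq, IFNAR2, IL10RB, IFNAR1 and IFNGR2 follow each other on chromosome 21 with no other protein-coding gene between them. IL10RB, a chain of the interferon lambda receptor that is not among the 58 genes, had a log2 fold change of 0.14 (adjusted p = 0.270). Of these neighbours, only IFNAR2 had a negative value.

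Among the 6 transcription factors (STAT2, IRF1, IRF2, IRF3, IRF7 and IRF9), 1 was called (16.7%, against 18.7% of all genes tested). IRF1, a factor that interferon gamma induces and that activates antigen presentation genes, had 3054 and 3191 normalized counts in siCt and 2583 and 2506 in siAXL. The siAXL mean was 81.5% of that in siCt (log2 fold change -0.295, standard error 0.0583, adjusted p = 0.0169), with both siAXL libraries below both siCt libraries. The adjusted p was 0.0560 without siAXL 1, 0.0824 without siAXL 2 and 0.0535 with all genes of at least 1 read. The promoter of IRF1 printed above carries a GAS and no ISRE core, and C5orf56, which overlaps the gene on the opposite strand, averaged 200.5 reads.

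The other 5 transcription factors were not called, with log2 fold changes from -0.18 to 0.053. STAT2 had 4282 and 3575 normalized counts in siCt and 4549 and 3623 in siAXL (log2 fold change 0.053, standard error 0.123, adjusted p = 0.806), so that the libraries of a group differed more than the groups. IRF9, its DNA-binding partner, was low, with 118.9 and 96.4 in siCt and 100 and 89.4 in siAXL (log2 fold change -0.18, standard error 0.171, adjusted p = 0.520). IRF9 also shares 43.2% of its 50-base words with another transcript. IRF3, the factor activated downstream of MAVS and STING, had 3849 and 3451 in siCt and 3668 and 3193 in siAXL (log2 fold change -0.091 with a standard error of 0.0860, adjusted p = 0.513), and BCL2L12 overlaps it on the opposite strand with 1085 reads. IRF2 and IRF7 had log2 fold changes of -0.069 and 0.032.

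The 4 IFIT proteins, which bind foreign RNA ends and are among the genes most strongly induced by interferon, all had values below 0. By limma and by DESeq2 0 were called, by edgeR 1, and 1 had an unadjusted p under 0.05. Among all 16064 genes tested, limma called 18.7%, and 5468 had an unadjusted limma p under 0.05. IFIT1 had 1326 and 1390 normalized counts in siCt and 1061 and 1184 in siAXL, and missed the threshold narrowly (log2 fold change -0.28, standard error 0.0785, adjusted p = 0.0504). With edgeR it passed (adjusted p = 0.0477), and not with DESeq2 (0.0574). IFIT3 (log2 fold change -0.14, adjusted p = 0.271) and IFIT5 (-0.068, adjusted p = 0.460) had the most reads of the others. IFIT2, with 1837 to 2061 reads, overlaps LIPA on the opposite strand, which averaged 5646 reads. On its own strand it overlaps RP11-149I23.3, which averaged 103.5 reads. The genes IFIT2, IFIT3, IFIT1 and IFIT5 stand together on chromosome 10.

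ISG15 is a ubiquitin-like protein that is attached to other proteins. ISG15, its enzymes USP18 and HERC5, and HERC6, grouped with them, held 0 calls by limma, edgeR or DESeq2. Among them, 1 had an unadjusted limma p under 0.05, against 5468 of all 16064 genes tested. ISG15 had a log2 fold change of 0.15 (adjusted p = 0.263) and HERC5, the ligase that attaches it, -0.080 (adjusted p = 0.568). HERC6, named after its values were seen, had 439 and 408.5 normalized counts in siCt and 482 and 604 in siAXL (log2 fold change 0.35, adjusted p = 0.0936). These values lay apart between the groups, yet the gap between both siAXL libraries was wider than that between siAXL 1 and siCt 1.

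The membrane restriction factors lay on 1 side. For all 4 genes (IFITM1, IFITM2, IFITM3 and BST2) both siAXL libraries were above both siCt libraries, as in 30.6% of all genes tested. Of the 4, 2 were called higher, against 10.8% of all genes tested. BST2, or tetherin, which holds budding virus at the cell surface, had 2714 and 2883 normalized counts in siCt and 3442 and 3715 in siAXL. It was higher by 1.28-fold (log2 fold change 0.35, standard error 0.0655, adjusted p = 0.0136). IFITM2, which blocks virus entry from endosomes, had 754 and 686 in siCt and 896 and 998 in siAXL, 1.32-fold higher (log2 fold change 0.40, standard error 0.0895, adjusted p = 0.0256).

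The other IFITM genes were not called by limma, with log2 fold changes of 0.18 in IFITM3 (adjusted p = 0.0564) and 0.25 in IFITM1 (adjusted p = 0.128). IFITM3 passed with edgeR's test (0.0389). Without siAXL 2 the log2 fold change was 0.30 in BST2 (adjusted p = 0.0654) and 0.32 in IFITM2 (adjusted p = 0.123), so the calls were lost while siAXL 1 alone still lay above both siCt libraries. The calls stayed without any of the other libraries, and with all genes of at least 1 read the adjusted p was 0.0549 and 0.0813. The IFITM genes share 50-base words with other genes, each most with another IFITM gene. The shares were 34.1% in IFITM2, 32.0% in IFITM1 and 17.4% in IFITM3, so the split of reads among them is uncertain. The IFITM genes lie next to each other on chromosome 11.

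**Figure D3:**
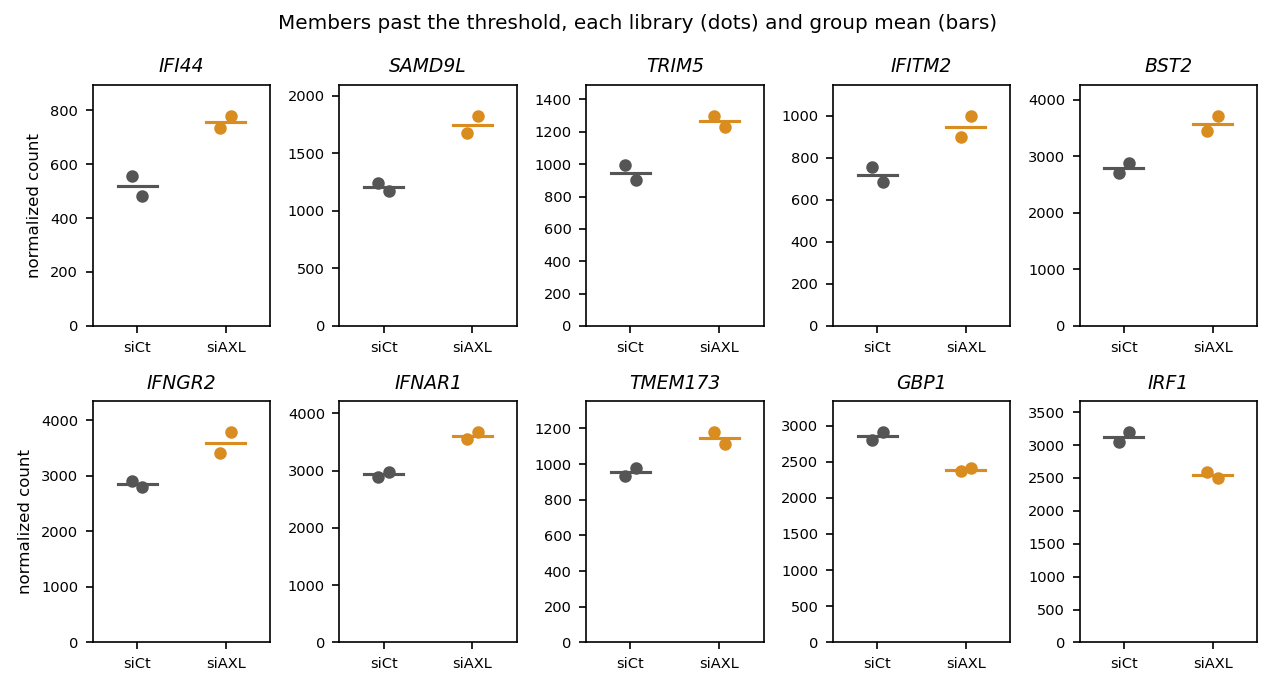
Normalized counts of the 10 called genes in each library (dots) with the group mean (bar), from 0 on a linear axis for each gene. In each panel the 2 siAXL libraries lie on 1 side of the 2 siCt libraries, above in 8 genes and below in IRF1 and GBP1.

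Of the 5 GTPases (MX1, MX2, GBP1, GBP2 and GBP3), 1 was called (20%, against 18.7% of all genes tested). GBP1, a guanylate-binding protein that attacks the membranes of intracellular pathogens, had 2802 and 2904 normalized counts in siCt and 2365 and 2412 in siAXL. That is 83.7% of the siCt level (log2 fold change -0.256, standard error 0.0574, adjusted p = 0.0248). The adjusted p was 0.0751, 0.128 and 0.0857 without siCt 2, siAXL 1 and siAXL 2, and 0.0652 with all genes of at least 1 read, so the call held only without siCt 1 among the fits on 3 libraries. Its neighbours on chromosome 1 did not share the difference in value, as GBP2 had a log2 fold change of 0.035 (adjusted p = 0.697) and GBP3 0.0044 (adjusted p = 0.968). GBP1 shares 9.62% of its 50-base words with other genes, and 6.60% with the pseudogene GBP1P1. MX1 and MX2, dynamin-like GTPases that block incoming viruses, had log2 fold changes of 0.13 and 0.095.

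The 3 PARP genes, which attach ADP-ribose to proteins, held 0 calls by limma, edgeR or DESeq2, and 0 had an unadjusted p under 0.05. Among all 16064 genes tested, limma called 18.7%, and 5468 had an unadjusted limma p under 0.05. PARP14 had a log2 fold change of -0.060 (adjusted p = 0.767), PARP12 -0.060 (adjusted p = 0.496) and PARP9 0.11. PARP9, with 756 to 941 reads, overlaps DTX3L on the opposite strand, which averaged 2366 reads. Among the 4 TRIM proteins, TRIM5 alone was called (25%, against 18.7% of all genes tested). TRIM5, which binds the capsid of incoming retroviruses, had 993 and 899 normalized counts in siCt and 1298 and 1233 in siAXL, 1.34-fold higher with no overlap (log2 fold change 0.42, standard error 0.0784, adjusted p = 0.0140). Without siAXL 1 the adjusted p was 0.0645, and with all genes of at least 1 read 0.0534. TRIM25, the ligase that helps RIG-I to signal and the most abundant of the group, had a log2 fold change of -0.069 (adjusted p = 0.392), TRIM21 -0.011 and TRIM22 -0.079.

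SAMD9L, a growth-restraining antiviral factor, had the smallest adjusted p of the 58 genes. Its normalized counts were 1240 and 1168 in siCt and 1673 and 1823 in siAXL, a 1.45-fold difference (log2 fold change 0.54, standard error 0.0732, adjusted p = 0.00517). The call stayed with each library left out in turn and in every other setting tried at the threshold of 0.05. SAMD9, its neighbour on chromosome 7 and close relative, had 2260 and 2553 in siCt and 2588 and 3065 in siAXL, on the same side but not past the threshold (log2 fold change 0.23, adjusted p = 0.145).

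IFI44 was the only called gene of the 8 other effectors (IFI6, IFI27, IFI35, IFI44, IFI44L, ISG20, RSAD2 and XAF1). The share called was 12.5%, against 18.7% of all genes tested. IFI44 had 555 and 480.0 normalized counts in siCt and 732 and 778 in siAXL, 1.46-fold higher (log2 fold change 0.55, standard error 0.0977, adjusted p = 0.0121). This call stayed with each library left out, and at the threshold of 0.05 was lost only with all genes of at least 1 read (adjusted p = 0.0523). IFI44L, the neighbouring gene on chromosome 1 and a widely used marker of the interferon response, was close to the lower end of the measured levels, with 66.2 and 53.1 in siCt and 78.7 and 64.8 in siAXL (log2 fold change 0.27, adjusted p = 0.412). IFI27 and IFI35, the others with the most reads, had log2 fold changes of 0.16 (adjusted p = 0.154) and -0.21 (adjusted p = 0.156). RSAD2, or viperin, had 36.8 to 59.0 normalized counts over the 4 libraries.

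The called genes were found on both sides of the ISRE division. Of the 28 genes with an ISRE core in the promoter, 3 were higher in siAXL (BST2, TRIM5 and IFI44) and 1 was lower (GBP1), and their median log2 fold change was 0.12. Of the 16 genes without it, 3 were higher (IFNAR1, IFNGR2 and SAMD9L) and 1 was lower (IRF1), with a median of 0.072. The other 2 calls, of TMEM173 and IFITM2, were among the 14 genes with no promoter in the table. The calls made up 14.3% of the genes with the core, 25% of those without it and 14.3% of those with no promoter. Of all genes tested, 18.7% were called. The difference between these sets was not tested.

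The levels of the 58 genes covered a wide range in this line. Per kilobase of exon, averaged over the 4 libraries, BST2 was highest with 2849 normalized counts, followed by IFITM3 with 2514, ISG15 with 2131, DDX58 with 1628 and IFIT3 with 1520. The lowest were IFI44L with 6.42, MX2 with 7.93, RSAD2 with 9.25 and USP18 with 14.1. These are levels and not differences between the groups, and neighbours such as BST2 and IFITM3 were not tested against each other. Genes of 1 family stood far apart in level, as the level of IFI44 (312) against IFI44L and that of IFIT3 against IFIT1 (269) show.

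**Figure D4:**
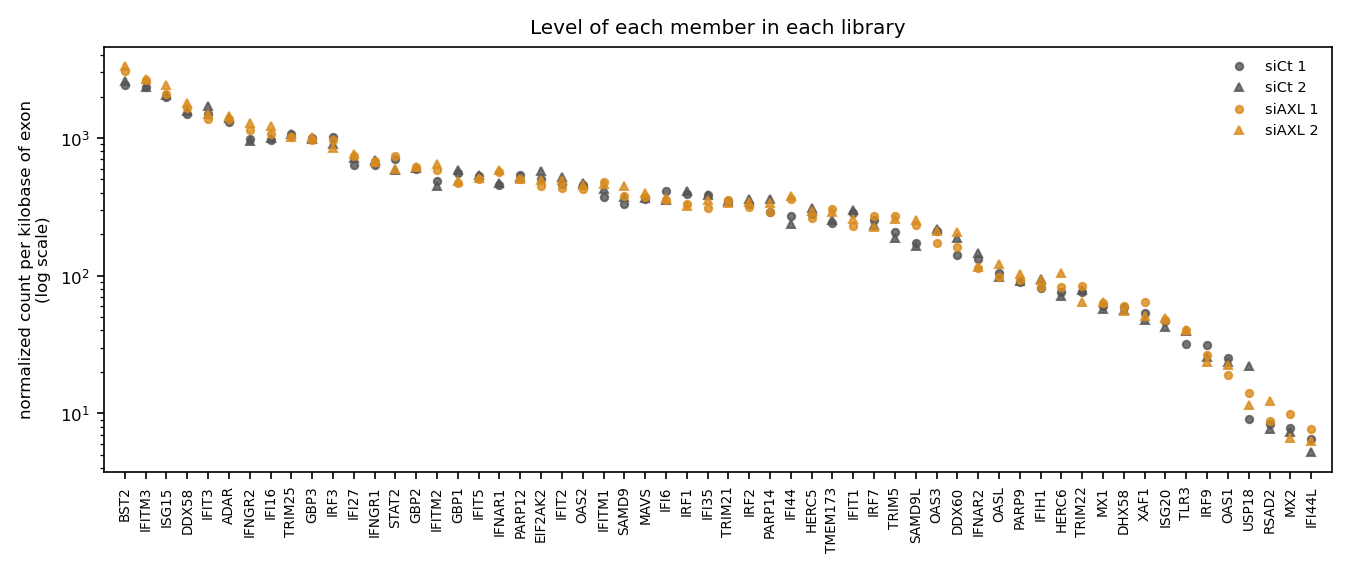
Normalized count per kilobase of exon (log scale) of each of the 58 genes in each library, ordered by the mean. The levels run from 2849 in BST2 to 6.42 in IFI44L, and siCt (grey) and siAXL (orange) symbols lie close together for nearly all genes.

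The rest of the pathway was read from a list of 85 other genes, of which 68 could be tested. Here 2 were higher in siAXL (2.94%) and 5 lower (7.35%), against 10.8% and 7.91% of all genes, and the median log2 fold change was 0.0094. The ligands were at the floor of detection. IFNA1, IFNB1, IFNE, IFNG, IFNK, IFNL2 and IFNL3 had 0 reads in all 4 libraries, and IFNL1 had 2 reads in siAXL 2 alone. A count of 0 allows up to 3 reads, or 2.88 to 3.25 normalized counts, a bound that covers counting error only. A difference in these ligand genes below that level was not detectable at this depth. Of the IFNA genes, the list held IFNA1 alone.

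The 5 kinases held 0 calls by limma, edgeR or DESeq2, where limma called 18.7% of all genes tested. JAK1 had 6986 and 7502 normalized counts in siCt and 7169 and 8261 in siAXL (log2 fold change 0.088, adjusted p = 0.487), JAK2 a log2 fold change of 0.094 (adjusted p = 0.587) and TYK2 of 0.040 (adjusted p = 0.770). Of the 8 negative regulators, SOCS3, a suppressor of JAK kinases, was called (12.5%, against 18.7% of all genes tested). SOCS3 had 1407 and 1468 in siCt and 1151 and 1107 in siAXL (log2 fold change -0.35, standard error 0.0670), with an adjusted p = 0.0154, and 0.0740 without siAXL 2. SOCS1 had 164.0 and 173.4 in siCt and 177.7 and 177.9 in siAXL (log2 fold change 0.076, adjusted p = 0.707).

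The 9 tested other sensors and adaptors and the 6 nucleases held 4 calls, where 18.7% of all genes were called. MB21D1, which encodes the DNA sensor cGAS upstream of STING, had 3447 and 3651 normalized counts in siCt and 2660 and 2610 in siAXL (log2 fold change -0.43, standard error 0.0588, adjusted p = 0.00527). It was lower while TMEM173 was higher, and its call stayed with each library left out. MYD88, the adaptor of most Toll-like receptors, was higher, with 2701 and 2474 in siCt and 3267 and 3375 in siAXL (log2 fold change 0.36, standard error 0.0651), with an adjusted p = 0.0126, and 0.0522 without siAXL 2. RNASEH2A, the catalytic subunit of the RNase H2 complex that removes RNA from DNA, had 2628 and 2648 in siCt and 1954 and 2157 in siAXL (log2 fold change -0.36, standard error 0.0677), with an adjusted p = 0.0142, and 0.0754 without siAXL 1. RNASEH2B, the fifth lower gene of the list, had 888 and 921 in siCt and 682 and 746 in siAXL (log2 fold change -0.34, adjusted p = 0.0286). Its adjusted p was 0.0505, 0.157 and 0.0504 without siCt 2, siAXL 1 and siAXL 2. The third subunit, RNASEH2C, had a log2 fold change of -0.063 (adjusted p = 0.586).

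Of the 36 further interferon-stimulated genes in that list, 33 were tested. In siAXL, 1 was higher (3.03%) and 1 lower (3.03%), against 10.8% and 7.91% of all genes tested. CXCL11, a chemokine that draws T cells, had 65.2 and 52.0 normalized counts in siCt and 112.7 and 142.5 in siAXL, 2.16-fold higher (log2 fold change 1.11, standard error 0.197, adjusted p = 0.0121). Its adjusted p was 0.0513 without siAXL 2 and 0.0548 with all genes of at least 1 read, the setting in which MYD88 (0.0524), RNASEH2A (0.0551) and RNASEH2B (0.0761) also lost their calls. PNPT1, an enzyme that degrades RNA in mitochondria, had 2154 and 2146 in siCt and 1608 and 1696 in siAXL (log2 fold change -0.38, standard error 0.0617, adjusted p = 0.00899). Of the smaller groups, the 2 other receptor chains, the 5 kinases, the 2 enzymes of the ISG15 chain and the 2 tested IRFs held 0 calls by limma, edgeR or DESeq2. Of these genes, IFNLR1 had an unadjusted limma p under 0.05, as had 5468 of all 16064 genes tested.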

How the data were processed

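RNA from MDA-MB-231 cells (siCt, siAXL, 2 libraries each) was sequenced by the authors on an Illumina instrument. The submitters' processing notes name CASAVA 1.8, TopHat2 2.0.10, HTSeq 0.5.3, DESeq2 1.4.5 and GRCh37, and the strand setting and annotation are not given in the sources used here. The deposited table holds normalized counts for 63677 genes, a signal that the authors made by dividing reads by DESeq2 size factors. Every deposited value (100%) came out as whole reads within 0.001, so reads were recovered by multiplication with the size factor. The authors' columns of mean, log2 fold change, standard error, statistic and p-values were not used, and 0 per-sample columns were left out.

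Groups came from the labels. Genes passing edgeR's filterByExpr (16064) were tested two-sided with limma (3.58.1, R 4.3.3, lmFit and eBayes with trend) on log2(normalized count + 1), with Benjamini-Hochberg adjustment over all of them and a threshold of 0.05. This scale understates changes of low genes. The smallest two-sided permutation p with 2 against 2 libraries is 0.333, so p-values rest on the spread shared across genes. Replicates differed beyond sampling noise (chi-square per gene 21.9 in siCt, 19.7 in siAXL). The alternatives were edgeR (4.0.16) and DESeq2 (1.42.0) on recovered reads, other scalings, pseudocounts, filters and thresholds, each library left out, and a replicate block.

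The members and lists were chosen with earlier results of these data known. Values are given for every called member, the receptor chains, IRF3, STAT2, IRF9, MAVS, TMEM173, DDX58 and IFIH1, for up to 2 of the most read other genes per role, for up to 4 called pathway genes per direction by adjusted p, and for JAK1, JAK2, TYK2 and the ligands. Some genes of the lists are not reported here. Members at an absolute log2 fold change of at least 0.5 without a call numbered 0. Further named genes were chosen after their values were seen. Exon lengths, overlaps and shared words of 50 bases came from GENCODE release 29 by Ensembl identifier (58 of 58 found), and 11 members share at least 5% of such words with other genes.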

Additional observations from a re-analysis of the deposited data

How the results depend on the processing

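With 2 libraries per group, the calls depended on few libraries and on the set of genes fitted, and the cause was not tested unless named. The 10 called members kept their direction in every setting, and 10 were kept with edgeR (TMM or DESeq2 size factors), TMM scaling and pseudocounts of 0.5 and 8, 9 with DESeq2 or library size scaling. With all genes of at least 1 read, the number of genes called was 1097 in place of 3006, with 2 members higher and 0 lower and 0 pathway genes higher and 3 lower. At a threshold of 0.01 the counts were 859 genes, 1 and 0 members, and 0 and 2 pathway genes, and at 0.1 they were 4543 genes, with 4 members and 10 pathway genes lower, since the threshold itself moved. Leaving out each library in turn, where the lone library of a group is assumed to vary like the others, gave 1301 to 3900 genes, 3 to 11 members higher, 0 to 6 lower, 0 to 2 pathway genes higher and 3 to 9 lower, and a members median log2 fold change of 0.0218 to 0.0678. Library size scaling moved that median to 0.0149.

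With the replicate number as a block, the genes called numbered 7310, with 17 members higher and 8 lower and 11 pathway genes higher and 15 lower. The deviations of same-numbered libraries correlated at 0.271, but there are only 2 numbers and the labels give no shared batch, so the numbers were not taken to pair the libraries.

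Genes that changed sign were not called in any setting that changed it. Library size scaling gave -0.0252 in IFIH1, -0.0060 in IFNGR1 and -0.0248 in GBP3, and DHX58 came to 0.0005 with edgeR and 0.0000 with TMM scaling. With libraries left out, the values ran from -0.0971 to 0.105 in IFIH1, -0.0737 to 0.0555 in DHX58, -0.0411 to 0.360 in DDX60, -0.0011 to 0.112 in ADAR, -0.0594 to 0.252 in OASL, -0.0350 to 0.0815 in IFNGR1, -0.111 to 0.217 in STAT2, -0.139 to 0.0002 in IRF2, -0.191 to 0.0094 in IRF3, -0.0960 to 0.161 in IRF7, -0.180 to 0.0024 in IFIT2, -0.755 to 0.483 in USP18, -0.167 to 0.0070 in HERC5, -0.192 to 0.382 in MX2, -0.0396 to 0.0485 in GBP3, -0.221 to 0.1004 in PARP14, -0.0462 to 0.0233 in TRIM21, -0.276 to 0.117 in TRIM22, -0.195 to 0.0187 in IFI6, -0.0013 to 0.345 in XAF1, -0.0141 to 0.190 in JAK1, -0.0114 to 0.200 in JAK2 and -0.0406 to 0.120 in TYK2. Depth limits the ligands and the genes with few reads, such as USP18.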
